A study of Mus musculus with 6 samples.

Results

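The 10 genes described here encode the AP-1 proteins of the Jun family (Jun, Junb, Jund) and the Fos family (Fos, Fosb, Fosl1, Fosl2), together with Atf3, Egr1 and Klf4, other transcription factors that cells induce early after a stimulus. They were picked out by gene symbol, by a rule that uses no measured value, though earlier results of these data were known when the set was drawn up, and all 10 were found among the 22274 genes of the deposited table. RNA was sequenced from mouse cells labelled as primary renal fibroblasts of the kidney, and every culture, controls included, had received 5 ng/ml of the profibrotic cytokine TGF-β over 48 h. Scrambled siRNA was used for 3 control libraries of wild-type cells, and siRNA against Prune2 for the other 3 libraries. The labels used here give no strain, age or number of animals and do not say whether replicates were separate cultures, so p-values measure the spread between libraries, which may be technical.

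AP-1 is a dimer that binds DNA through a basic region and holds together by a leucine zipper. Jun proteins pair with each other or with Fos proteins, whereas Fos proteins need a partner such as Jun. The genes for Fos, Fosb, Jun, Junb, Egr1 and Atf3 are classical immediate early or stress response genes: their transcripts rise soon after serum, growth factors or stress and are short-lived. In fibroblasts and epithelium, AP-1 and Egr1 act downstream of the MAP kinases on genes for matrix, proteases and cytokines. Klf4 is a zinc finger factor of epithelial and endothelial differentiation.

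Library totals ran from 20075265 to 23234797 counts. Prune2, the siRNA target, stood at 6.495, 7.85 and 6.52 CPM (counts scaled to a common library size with TMM factors) in control replicates 1, 2 and 3, against 3.78, 3.19 and 4.44 CPM with Prune2 siRNA (log2 fold change -0.87, SE 0.15, edgeR adjusted p = 0.000214). The marker lists did not match the label well. The 12 fibroblast markers summed to between 706 and 967 CPM over the 6 libraries, of which Vim held 364 to 598 and Col1a1 191 to 239 CPM, Pdgfrb was at 15.8 to 22.2 CPM, and Lum at 0 to 3 counts, Fap at 0 to 4 and Dcn at 5 to 15 were nearly absent. The 21 tubular epithelial markers summed to between 11720 and 12570 CPM, with Spp1 at 4210 to 5000 CPM, Krt8 at 2060 to 2460 CPM and Epcam at 413 to 448 CPM, but the segment markers Slc34a1, Slc12a1 and Aqp2 did not pass the filter on low counts and Umod and Hnf4a had group means of 1.28 to 1.61 CPM. The genes are therefore described in cells that carried many epithelial transcripts. Of 22 leukocyte markers, 21 were called lower with Prune2 siRNA, and their summed level went from 243 to 300 CPM in control libraries to 57.9 to 60.7 CPM. Of 14 tested endothelial markers, 7 were called lower, with sums of 158 to 173 against 117 to 124 CPM, and of 9 tested fibroblast markers 4 were called lower. Of 18 tested tubular markers, 5 were called higher, among them Slc12a3 (log2 fold change 1.42, from 1.99 to 5.32 CPM), Wfdc2 (0.44) and Cdh16 (0.28). The 3 called lower were Aqp1 (-0.41), Lrp2 (-0.26) and Krt8 (-0.13), and the median log2 fold change of the tested tubular markers was 0.04. Over all tested genes 10.3% were called.

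None of the 10 factors was called changed by Prune2 siRNA. A gene is called when edgeR's quasi-likelihood test, fitted over all 13248 genes that passed its filter on low counts, gives a Benjamini-Hochberg adjusted p under 0.05. All 10 passed the filter, 0 were called higher and 0 lower, beside 10.3% of all tested genes called (4.46% higher and 5.83% lower). DESeq2 and limma-voom also called 0 of the 10. At an unadjusted p under 0.05 in edgeR there were 2, Egr1 and Jun, beside 20% of all tested genes. The median log2 fold change of the 10 was -0.01, with 5 above 0 and 5 below, and the median over all tested genes was 0.00. The CPM ranges of the groups did not overlap for Fos and Fosb, which is 20% of the members, beside 24.3% of all tested genes. With all 6 libraries, Egr1 was called lower by edgeR with no filter on low counts (adjusted p = 0.0241). The count called lower also changed with single libraries: it was 2 without control replicate 3 (Egr1 and Jun) and 1 without Prune2 siRNA replicate 1 (Egr1).

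**Figure D1:**
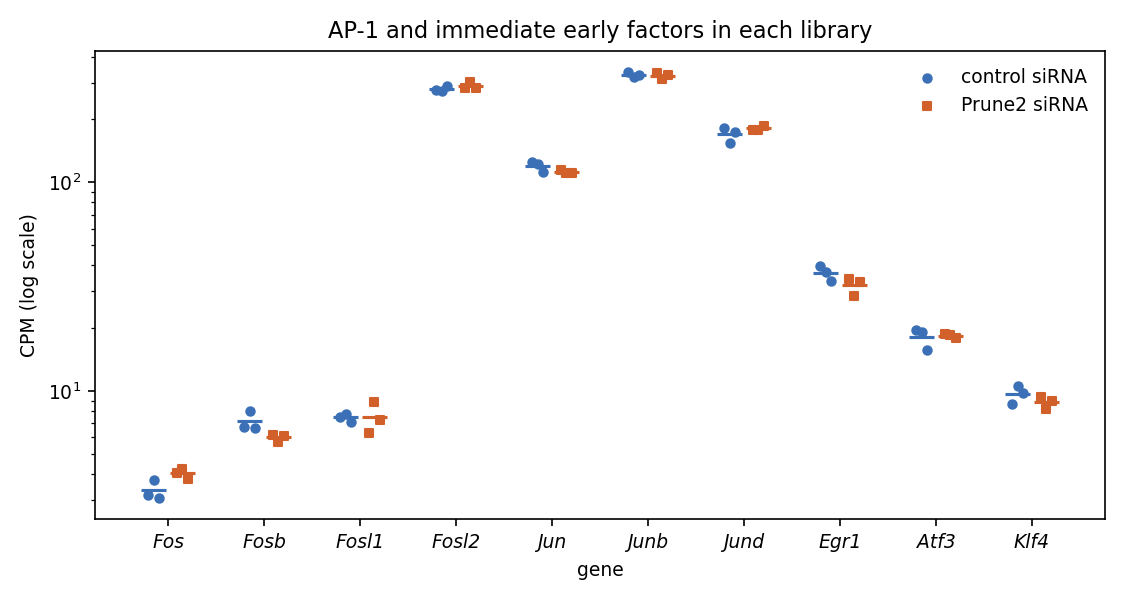
Level of each of the 10 genes in CPM (log axis) in the 3 control siRNA libraries (circles) and 3 Prune2 siRNA libraries (squares), with a line at each group mean. The groups overlap for 8 genes; Fos lies higher and Fosb lower in every Prune2 siRNA library.

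Levels between genes were compared per length, in the deposited FPKM (fragments scaled to gene length and library size). Junb was the highest of the 10 at 180.5 FPKM (median of 6 libraries, 171.9 to 185.4), followed by Jund at 106.8 (92.1 to 113), Fosl2 at 43.5 (41.7 to 46.0) and Jun at 35.5 (34.6 to 39.1). These 4 ranges did not overlap each other. Egr1 had a median of 10.04 FPKM (8.39 to 11.5) and Atf3 of 9.43 (7.88 to 9.81), and Egr1 was the higher in 5 of 6 libraries. Fosl1 (3.97 FPKM, 3.38 to 4.74), Klf4 (3.07, 2.84 to 3.47), Fosb (2.30, 1.97 to 3.05) and Fos (1.80, 1.46 to 2.00) were lower, and each of these 4 overlapped its neighbour in the order.

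Among the Jun genes, Junb was nearly equal in the groups. Its product is a Jun protein with weaker transactivation than Jun in many settings. Junb (chromosome 8, 84974484 to 84978718, minus strand, GRCm38) stood at 337, 321 and 325 CPM in control replicates 1 to 3 and at 334, 312 and 326 CPM with Prune2 siRNA. The groups overlapped throughout, and the fold difference was 0.988 with a 95% confidence interval of 0.937 to 1.04 (log2 fold change -0.02, SE 0.04, edgeR adjusted p = 0.858). Jund, the member that cells usually express constitutively, lies on the same chromosome (70698949 to 70700616, plus strand). It stood at 182, 154 and 173 CPM in control libraries and 178, 178 and 187 CPM with Prune2 siRNA. Control replicate 2 was the lowest library, and the other 5 lay between 173 and 187. The log2 fold change of Jund was 0.09 (SE 0.05, edgeR adjusted p = 0.266), or 1.07-fold with an interval of 0.998 to 1.14, and without control replicate 2 it was 0.03.

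Jun, the prototype of the family, stood at 125.5, 123 and 112 CPM in control replicates 1, 2 and 3 and at 114, 110.7 and 110.3 CPM with Prune2 siRNA. Control replicates 1 and 2 lay above every Prune2 siRNA library and control replicate 3 lay among them. Its mean was 120.2 ± 6.96 CPM in controls and 112 ± 2.07 with Prune2 siRNA (SD, n = 3), a log2 fold change of -0.10 (SE 0.04, edgeR adjusted p = 0.153). Without control replicate 3 the log2 fold change was -0.15 with an edgeR adjusted p of 0.0237, and over the 14 alternatives the adjusted p ran from 0.0237 to 0.443. Jun is a single-exon gene on the minus strand of chromosome 4 (95049034 to 95052222).

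Whether counting used strand is not given here, so reads from overlapping genes on opposite strands cannot be told apart. Jund shares 877 of its 1668 exonic bases with the antisense gene Gm11175, Jun shares 232 with Junos, and Junb shares 173 with the coding gene Prdx2. Prdx2 was at 254 ± 12.5 CPM in controls and 256 ± 6.56 with Prune2 siRNA (SD, n = 3). Fosl1 shares 1163 of its 2033 annotated exonic bases with Ccdc85b, which was at 8.55 to 13.4 CPM (log2 fold change 0.15, edgeR adjusted p = 0.613).

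Fos had the highest log2 fold change of the 10 and the lowest level. Fos, on chromosome 12 (85473890 to 85477273, plus strand), had 65, 75 and 71 counts in the control libraries and 86, 97 and 89 with Prune2 siRNA. In CPM these are 3.17, 3.75 and 3.09 against 4.06, 4.23 and 3.801. Every Prune2 siRNA library lay above every control library, but the nearest 2 differed by little, 3.75 in control replicate 2 and 3.801 in Prune2 siRNA replicate 3. The fold difference was 1.21 with an interval of 0.952 to 1.54 (log2 fold change 0.28, SE 0.17, edgeR adjusted p = 0.405).

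Fosb, which also gives rise to the long-lived truncated protein ΔFosB, lay the other way. It is on chromosome 7 (19302696 to 19310051, minus strand) and stood at 6.74, 8.05 and 6.65 CPM in control libraries and 6.18, 5.67 and 6.11 CPM with Prune2 siRNA. All Prune2 siRNA libraries lay below all controls, with control replicate 2 standing above the rest. The log2 fold change was -0.25 (SE 0.13, edgeR adjusted p = 0.277), and the interval ran from 0.699-fold to 1.01-fold. Without control replicate 2 it was -0.16. In the authors' deposited table the log2 fold change of Fosb, made from mean FPKM, is -0.37, and the adjusted p is 0.664. The p-value behind it equals that of DESeq2 on the counts (log2 fold change -0.25), so it does not test the FPKM ratio.

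For Fosb, count and FPKM were not in a fixed ratio. The gene length implied by that ratio was 2779, 2629 and 2594 bases for Fosb in the control libraries and 2831, 2873 and 3017 bases with Prune2 siRNA. The groups did not overlap, and the mean was 8.96% longer with Prune2 siRNA (exact two-sided permutation p = 0.1, the smallest that 3 libraries against 3 can give). Fosb was the only member to separate, and its p was not adjusted for the members tested. The share of all genes that separate in this way was not computed. For 7 of the other 9 genes the implied length varied by under 10 bases over the 6 libraries, as for Jun at 3189 bases in all 6. The exceptions were Egr1, at 3372 to 3425 bases, and Klf4, at 2684 bases in Prune2 siRNA replicate 2 and 3024 to 3033 in the other 5. Fosb has 7 annotated transcripts in GENCODE M21, and whether their use differed was not tested.

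**Figure D2:**
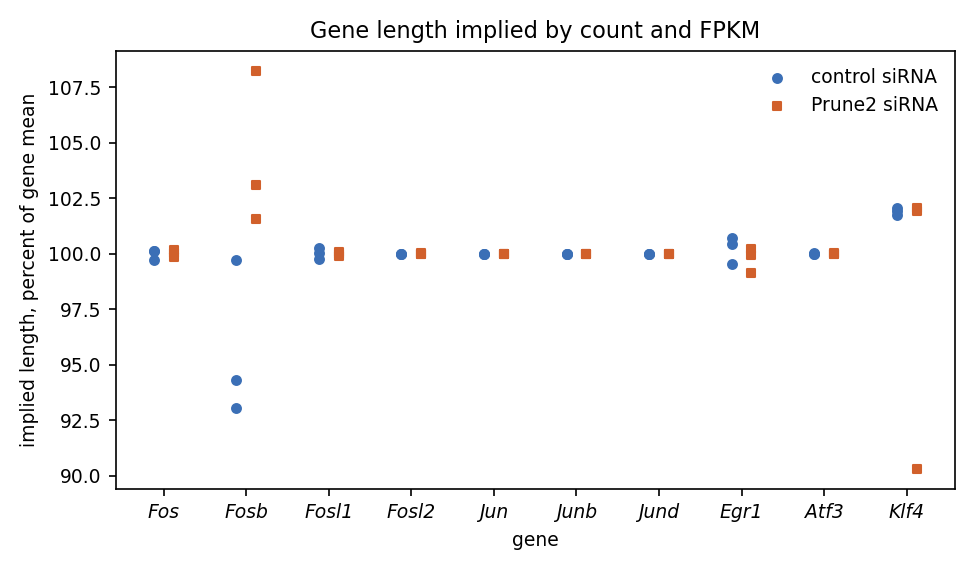
Gene length implied by the deposited count and FPKM in each library, as a percent of the gene's mean over the 6 libraries. Fosb alone separates by group, from 2594 to 2779 bases in controls and 2831 to 3017 with Prune2 siRNA, and Klf4 has 1 low library. The share of all genes that separate in this way was not computed.

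Fosl2, the Fos-family gene with the highest level here, differed little. Its protein Fra-2 lacks the strong transactivation domain of Fos and is associated with fibrosis in mice. Fosl2 (chromosome 5, 32135801 to 32157842, plus strand) stood at 277, 274 and 289.7 CPM in controls and 284, 301 and 282 CPM with Prune2 siRNA, and the groups overlapped. The interval was 0.978-fold to 1.09-fold (log2 fold change 0.05, SE 0.04, edgeR adjusted p = 0.576). Fosl1, which encodes Fra-1, stood at 7.52, 7.80 and 7.13 CPM in controls and 6.28, 8.86 and 7.26 CPM with Prune2 siRNA. The lowest and the highest library were both Prune2 siRNA libraries, and the log2 fold change was 0.00 (SE 0.13, edgeR adjusted p = 0.997).

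The make-up of each family, as shares of its summed FPKM, was similar in all libraries. Fosl2 made up between 82.2% and 85.3% of Fos-family FPKM. The Fos share was 3.00%, 3.49% and 2.80% in controls and 3.78%, 3.66% and 3.55% with Prune2 siRNA, and the Fosb share was 4.82%, 6.02% and 4.91% against 4.29%, 3.60% and 3.98%. These shares separated the groups in opposite directions, as the levels did, and are not a separate observation from them. Fosb FPKM also carries the implied length, which averaged 2907 bases with Prune2 siRNA against 2668 in controls. The Fosb share therefore does not follow CPM alone. In the Jun family Junb held 54.9% to 57.5%, and Jund 32.5%, 30.0% and 32.6% in controls against 32.7%, 34.0% and 34.3% with Prune2 siRNA, with only a narrow gap between the groups. Summed FPKM of the Jun family was 6.27 ± 0.329 times that of the Fos family in controls and 6.19 ± 0.407 times with Prune2 siRNA (SD, n = 3).

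**Figure D3:**
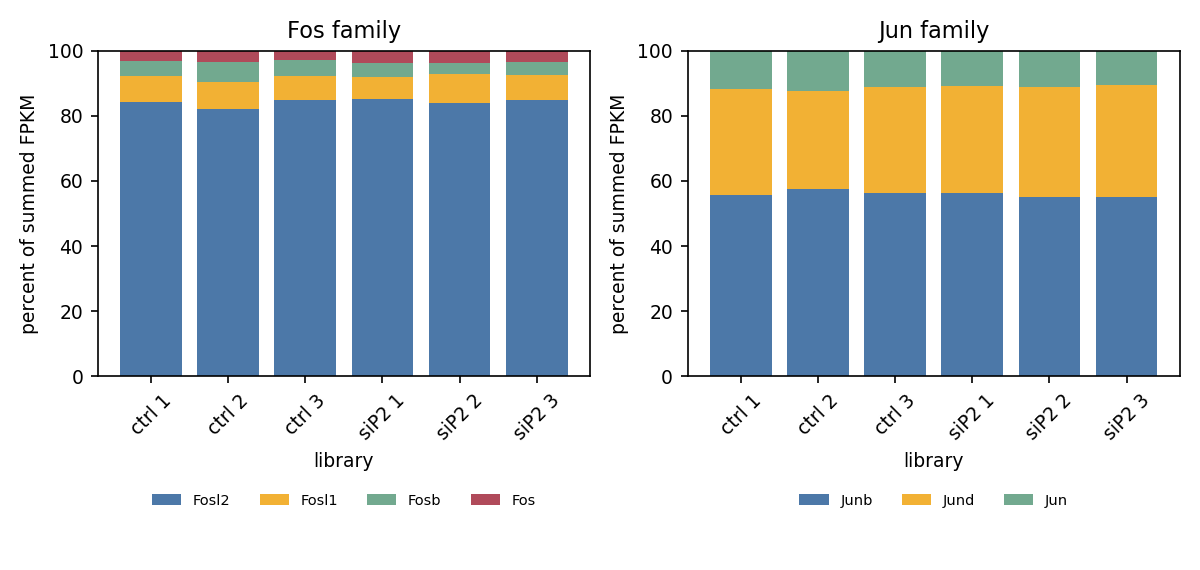
Share of each gene in the summed FPKM of the Fos family (left) and Jun family (right) in each library; ctrl, control siRNA; siP2, Prune2 siRNA. Fosl2 holds 82.2% to 85.3% and Junb 54.9% to 57.5% of their families in all 6 libraries.

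Egr1 came closest to the threshold. This zinc finger factor is induced through serum response factor and acts on growth factor and matrix genes. Egr1 (chromosome 18, 34859823 to 34864984, plus strand) stood at 39.5, 37.2 and 33.8 CPM in control replicates 1, 2 and 3 and at 34.4, 28.7 and 33.3 CPM with Prune2 siRNA. The groups overlapped, since control replicate 3 lay below Prune2 siRNA replicate 1. The means were 36.8 ± 2.87 and 32.1 ± 3.02 CPM (SD, n = 3), a fold of 0.872 with an interval of 0.789 to 0.964 (log2 fold change -0.20, SE 0.07, edgeR adjusted p = 0.0784). The edgeR adjusted p was 0.0181 without control replicate 3 and 0.0370 without Prune2 siRNA replicate 1, and over all 14 alternatives it ran from 0.0181 to 0.372. Without Prune2 siRNA replicate 2, the lowest library, the log2 fold change was -0.12. The authors' deposited table gives Egr1 a log2 fold change of -0.18, made from mean FPKM, and an adjusted p of 0.234. The p-value behind it equals that of DESeq2 on the counts, so it is not separate evidence.

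Atf3, a bZIP factor induced by stress that dimerises with Jun proteins and often represses, was nearly equal in the groups. It lies on chromosome 1 (191170296 to 191218039, minus strand) and stood at 19.6, 19.2 and 15.6 CPM in controls and 18.8, 18.6 and 17.9 CPM with Prune2 siRNA. Control replicate 3 was the lowest library and the Prune2 siRNA libraries lay within the control range. The log2 fold change was 0.02 (SE 0.08, edgeR adjusted p = 0.924), turning to -0.08 without control replicate 3. Klf4 (chromosome 4, 55527143 to 55532466, minus strand) stood at 8.64, 10.5 and 9.78 CPM in controls and 9.34, 8.20 and 8.93 CPM with Prune2 siRNA. These overlapped too, with a log2 fold change of -0.13 (SE 0.11, edgeR adjusted p = 0.576).

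**Figure D4:**
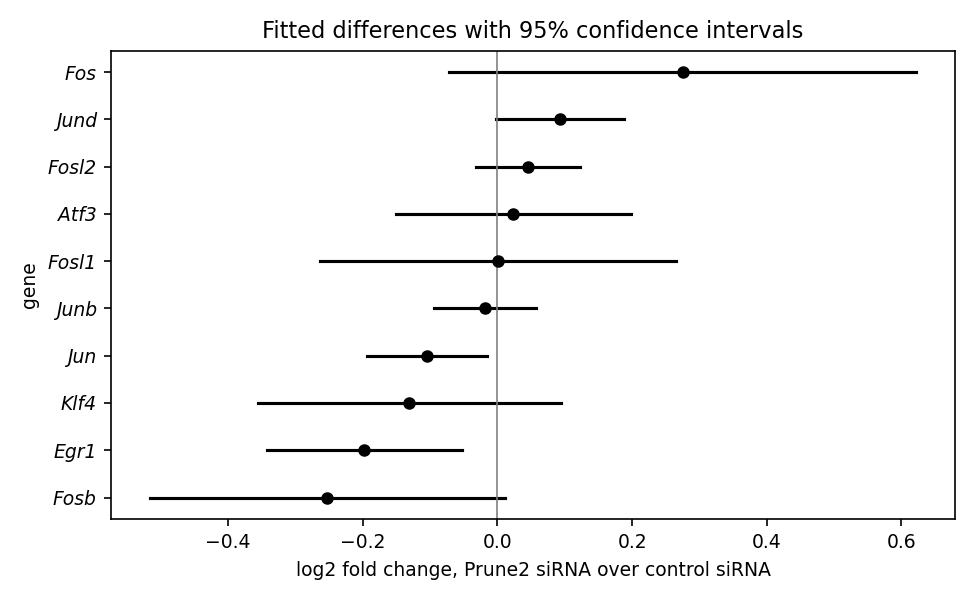
Fitted log2 fold change, Prune2 siRNA over control siRNA, of the 10 genes (points) with 95% confidence intervals (lines), before any adjustment for multiple tests. The intervals of Egr1 and Jun lie below 0, neither passes the adjusted threshold, and 9 of 10 intervals lie within 1.5-fold.

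The members also varied between replicates. The coefficient of variation of CPM within groups had a median of 8.40% over the 10, from 3.09% for Junb to 12.7% for Fosl1, and a median of 5.79% over all tested genes. Of the 10 genes, 7 lay above their group mean in control replicate 2, 7 in Prune2 siRNA replicate 1 and 3 in control replicate 3. Egr1, Jun, Atf3, Fos, Fosb and Fosl1 were all at their lowest control level in control replicate 3. In simulated counts at these depths the same test recovered 60% of 50 genes changed 1.2-fold and 86% of 50 changed 1.5-fold. Simulated differences of 1.2-fold were thus often missed. No such rate was computed for the 10 members, so these rates cannot be read as theirs. Junb (3.09%), Fosl2 (3.38%) and Jun (4.3%) varied less between replicates than the median tested gene, and the other members varied more. The members were not compared with genes of like level. Standard errors of the members ran from 0.04 for Junb to 0.17 for Fos. The simulation also changed fewer genes than were called in the data, which bears on the adjusted p.

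Promoter sequence is shown for 3 members to set out what the genes share, and do not share, next to their start. RefSeq start sites (GRCm38.p6) were found for 8 of the 10, all but Egr1 and Fosl1, and the 250 bases before each were searched. The core of the cyclic AMP response element, TGACGT on either strand, was in 2 of the 8 windows (Fos and Atf3) and in 6.47% of 32851 windows of all genes. The AP-1-like letters TGACATCA, on either strand, were in Jun alone, and in 2.93% of all windows. TATAAA on the gene's own strand was in Fos alone, and in 7.59% of all windows. The full element TGACGTCA, which contains TGACGT, the AP-1 site TGANTCA and the CArG box bound by serum response factor were in 0 of the 8, and in 1.55%, 6.75% and 1.47% of all windows. Bases further upstream and the promoters of Egr1 and Fosl1 were not searched, so an absence holds for these 8 windows only. GC content had a median of 64.8% over the 8 windows and 52.4% over all. In the 120 bases before the start, written on the strand of the gene, capitals mark these matches. The RefSeq start of Atf3 lies 34706 bases from the 5′ end of the gene in GENCODE M21, inside the gene, and those of Jund and Fosl2 lie 1210 and 671 bases from it.
Fos, chr12:85473770-85473889, plus strand: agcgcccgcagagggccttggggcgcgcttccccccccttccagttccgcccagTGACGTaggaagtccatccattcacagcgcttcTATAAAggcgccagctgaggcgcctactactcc
Jun, chr4:95052223-95052342, minus strand: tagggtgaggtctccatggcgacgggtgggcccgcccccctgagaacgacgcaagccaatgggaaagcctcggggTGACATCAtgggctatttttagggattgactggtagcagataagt
Atf3, chr1:191183334-191183453, minus strand: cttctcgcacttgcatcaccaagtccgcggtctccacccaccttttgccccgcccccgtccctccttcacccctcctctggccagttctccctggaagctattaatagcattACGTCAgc
A match describes letters in this window and is not evidence of binding. Fos and Atf3, which share the TGACGT core, had log2 fold changes of 0.28 and 0.02, and neither was called.

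Other immediate early genes included several that rose by small amounts. Of 36 tested, 9 rose and 2 fell (30.6% called, beside 10.3% of all tested genes), and their median log2 fold change was -0.02. Gadd45b, a growth arrest and stress gene, was at 103, 96.9 and 97.5 CPM in controls and 123, 123 and 121 CPM with Prune2 siRNA, with no overlap (log2 fold change 0.30, SE 0.04, edgeR adjusted p = 4.26e-06). Zfp36l1, which promotes decay of short-lived mRNAs, rose by 0.22 on the log2 scale, Nfkbiz, an NF-κB cofactor, by 0.28 and the kinase Sik1 by 0.25. Hbegf, an EGF receptor ligand, fell by 0.17 (edgeR adjusted p = 0.00148), and Arc fell by 0.18, losing its call without control replicate 3 (adjusted p = 0.214), Prune2 siRNA replicate 1 (0.0889) or Prune2 siRNA replicate 3 (0.151). The other 5 that rose, named after their values were seen, were Ier3, Klf5, Klf6, Myc and Btg2. Among them Klf6 lost its call in 5 of the 6 fits without 1 library, all but that without Prune2 siRNA replicate 3 (adjusted p up to 0.109), Myc lost it without control replicate 2, control replicate 3 or Prune2 siRNA replicate 3 (up to 0.101), and Btg2 without Prune2 siRNA replicate 1 (0.0523). On log2(FPKM + 1), limma called 5 of the list higher.

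Among other bZIP factors that pair with AP-1 proteins, Cebpd, Nfe2l2 and Jdp2 rose and Maf fell. Of 22 tested, 3 rose and 2 fell (22.7% called, beside 10.3% of all tested genes, median log2 fold change 0.00). For Maf, a bZIP factor of several differentiated cell types, the log2 fold change was -0.47 (edgeR adjusted p = 0.000203). The leukocyte marker sum was lower in the same libraries (243 to 300 against 57.9 to 60.7 CPM), its part in this value was not tested, and in such bulk RNA fewer cells of a type and less RNA per cell cannot be told apart. Cebpd, a C/EBP factor of acute phase responses, rose from 5.59 ± 0.901 to 9.28 ± 1.32 CPM (SD, n = 3), and Nfe2l2, the oxidative stress regulator Nrf2, rose by 0.19 on the log2 scale. Jdp2, a Jun-binding repressor, rose by 0.22 (edgeR adjusted p = 0.0277) but was not called without control replicates 2 (0.0744) or 3 (0.130) or Prune2 siRNA replicates 1 (0.116) or 3 (0.0910). Batf, Batf2 and Batf3 did not pass the filter.

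Few upstream signalling genes were called. Of 31 tested Ras, Raf and MAP kinase genes and ternary complex factors, Mapk13, a p38 kinase, rose by 0.21 on the log2 scale (edgeR adjusted p = 0.00763) and Elk3 fell by 0.12 (adjusted p = 0.0388), which is 6.45% called beside 10.3% of all tested genes. Mapk13 was not called without control replicate 2 (0.0634) or Prune2 siRNA replicate 3 (0.0752), and Elk3 was called only without Prune2 siRNA replicate 1 among the 6 fits that left out a library (adjusted p up to 0.151). Of 24 negative regulators, Zfp36l1 and Jdp2 rose and Dusp6 and Dusp4, phosphatases of the ERK kinases and themselves ERK-induced, fell (16.7% called). Dusp6 had 45.2 ± 1.52 CPM in controls and 35.7 ± 1.65 with Prune2 siRNA (SD, n = 3), a log2 fold change of -0.34 (edgeR adjusted p = 0.000111), and Dusp4 fell by 0.18. Both kept their call in the 6 fits that left out a library.

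Genes that AP-1 or Egr1 are known to act on moved in both directions. Of 35 tested, 5 rose and 7 fell (34.3% called, beside 10.3% of all tested genes), with a median log2 fold change of -0.01. The collagenase Mmp13 was at 19.5, 24.1 and 22.1 CPM in controls and 4.67, 5.15 and 4.74 CPM with Prune2 siRNA, and the gelatinase Mmp9 at 194, 204 and 196 CPM against 131, 140.2 and 111. Both proteases separated the groups, with log2 fold changes of -2.17 (SE 0.10) and -0.64 (SE 0.05), and macrophages and neutrophils also make them. The lower leukocyte marker sum accompanied these falls, and its part was not tested. The tenascin gene Tnc and the cytokine gene Il11 had log2 fold changes of -0.52 and -0.41, and Hbegf was also called lower. Cyclin D1 (Ccnd1) rose by 0.23, the protease Plau (urokinase) by 0.21, Cd44 by 0.19 and Ier3 by 0.17. Plau and Cd44 were not called by DESeq2 (adjusted p = 0.0556 and 0.0945) or by limma on FPKM, and the list's count higher was 3 with DESeq2 and 2 in each FPKM unit. The chemokine gene Ccl2, named after its values were seen, was also called higher, but not without control replicate 3 or Prune2 siRNA replicate 1 (edgeR adjusted p up to 0.162).

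**Figure D5:**
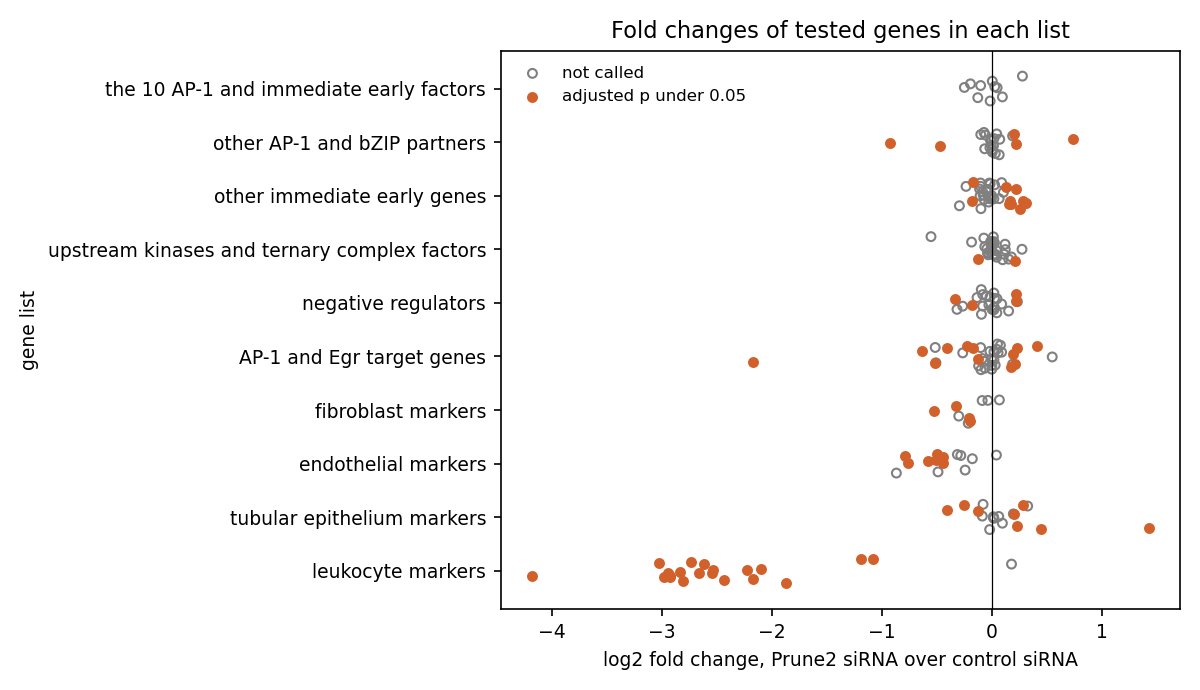
Log2 fold change, Prune2 siRNA over control siRNA, of each tested gene in the lists; filled points have an adjusted p under 0.05 and vertical position within a list is arbitrary. The 10 factors, all uncalled, lie between -0.25 and 0.28, while Mmp13 lies at -2.17 and 21 of 22 leukocyte markers are called lower.

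The genes whose centred log2 CPM over the 6 libraries came nearest to the members with the widest fold changes were found by the root mean square difference. For Fos these were Zc3hav1 (0.0399), Adar (0.0453) and Pmvk (0.0453), where Fos itself varied by 0.170 around its mean. Zc3hav1 and Adar, which act on viral and double-stranded RNA, were called higher (log2 fold change 0.32 for each). For Fosb they were Rmdn2 (0.0481), Trappc2l (0.0482) and Rgs16 (0.05), against 0.158 for Fosb itself, and Rgs16 was called lower (log2 fold change -0.24). For Egr1 they were Col16a1 (0.0296), Pycrl (0.0317) and Ckb (0.0338), against 0.144, and Col16a1 was called lower (-0.23). The other 5 of these 9 genes were not called. All values share the same 6 libraries in 2 groups, so they describe likeness and carry no test.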

How the data were processed

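The authors deposited 1 table with, per the file headers, a raw read count and an FPKM value per gene for each of the 6 libraries, group means of FPKM, their log2 ratio, and a p-value with its adjusted form. The submitters' processing notes name GRCm38 and mm10. Which aligner and counter the authors ran is not given in the sources used here, and their test is not named. For every member, though, the deposited p-value equals that of DESeq2 on these counts to the digits kept. The adjusted values differ. Groups come from the sample titles. Names and positions come from GENCODE M21 of GRCm38, which holds 22219 of the 22274 identifiers.

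Counts were fitted with edgeR 4.0.16 (R 4.3.3): filterByExpr, TMM scaling, glmQLFit and glmQLFTest with group as the only term, adjusted over 13248 genes. The standard error is the log2 fold change divided by the square root of F. Intervals are at 95%. List sums are CPM over all listed genes, tested or not. Alternatives were RLE and upper-quartile factors, DESeq2 1.42.0, limma-voom (limma 3.58.1), no count filter, a replicate term, each library left out, and limma on log2(FPKM + 1) and log2(FPKM + 0.1) for genes with at least 0.1 FPKM in 3 libraries. Pairs of replicates gave a chi-square per degree of freedom of 2.57 to 3.92, more than sampling noise gives, and each library was kept as its own replicate.

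The members and lists were chosen with earlier results of these data known. Named are Prune2, the 10 members, up to 4 called genes per direction and list by smallest adjusted p, and the 3 genes nearest in pattern (at least 5 CPM) to the 3 members with the widest fold changes; others are said to be named afterwards. Some genes of the lists are counted but not reported here by name. The procedure was tested on simulated counts over 13165 genes with 200 changed: of 50 genes at each size, 60% at 1.2-fold, 86% at 1.5-fold, 94% at 2-fold and 100% at 4-fold were recovered, and 3 of 173 calls were false.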

Additional observations from a re-analysis of the deposited data

How the results depend on the processing

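No member was called higher under any of the 14 alternatives. The count of members called lower, 0, became 1 with no filter on low counts (Egr1, edgeR adjusted p = 0.0241) and ranged from 0 to 2 when 1 library was left out. The number of genes called, 1364, was 997 to 1249 with 1 library left out, and 759 and 761 by limma on log2(FPKM + 1) and log2(FPKM + 0.1), which change unit, test and filter together. Prune2 lost its call by limma in those units (log2 fold change -0.24 and -0.43, adjusted p = 0.139 and 0.186) and ranged from -0.999 to -0.75 with 1 library left out.

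Signs turned only for members near 0. The log2 fold change of Fosl1 was -0.00798 with upper-quartile factors, -0.000784 with DESeq2, -0.00755 with limma-voom, -0.00345 and -0.00641 in the FPKM units, -0.0362 without control replicate 3, and -0.139 to 0.107 over the fits that left out 1 library. Over those fits Atf3 ran from -0.0798 (without control replicate 3) to 0.0789 and Junb from -0.0416 to 0.00983 (without Prune2 siRNA replicate 2). The cause was not tested. The other 7 members kept their sign in all 14.

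Replicate numbers did not clearly pair the libraries. Deviations of same-numbered libraries correlated at 0.0506, -0.0122 and 0.0251, and those of other pairs at -0.0846 to 0.0589. The highest was that of control replicate 3 with Prune2 siRNA replicate 2. Correlations this weak cannot settle whether libraries of the same number were paired. With a replicate block 1490 genes were called, 1 member was called lower (Egr1, log2 fold change -0.20, adjusted p = 0.0404) and Fosl1 was at -0.00738.

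Alternatives for the 5 gene lists and their named genes were added after the data were seen. The immediate early list had 7 to 8 genes called higher with 1 library left out and 4 to 9 over all 14. Besides Plau and Cd44, named list genes that lost their call with DESeq2 were Arc (adjusted p = 0.0708), Elk3 (0.0805) and Jdp2 (0.115). By limma in both FPKM units Arc, Ccl2, Elk3, Klf5, Maf, Mapk13, Myc, Nfkbiz and Sik1 lost theirs, and Klf6 did on log2(FPKM + 0.1) (adjusted p of 0.0524 to 0.187). Fos had the fewest counts of the members, 65 to 97 a library.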
